A study of Homo sapiens with 3 samples.

Results

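The genes described here are 39 regulators of the cell division cycle, the cyclins, cyclin-dependent kinases (CDKs), CDK inhibitors, E2F transcription factors and RB family proteins with their close partners. They were taken by symbol from a table of 17448 genes, in which all 39 were found. The RNA came from H128, an established human small cell lung cancer (SCLC) cell line, extracted 48 h after transfection. There were 3 libraries, siCont (control siRNA), siERRG2 and siERRG3, the last 2 transfected with different siRNAs against ESRRG, the gene of the nuclear receptor ERRγ. Each condition was sequenced as 1 library, so no test of the conditions was possible and no p-value is given. The protocol text shared by the samples also names treatment with the compound DN200434, whereas the titles give siRNAs only, and the groups follow the titles. The labels do not settle which siRNA sequence belongs to which of the ESRRG libraries.

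Cells commit to division in G1, when D cyclins with CDK4 or CDK6, and then E cyclins with CDK2, phosphorylate RB and release E2F factors that switch on the genes of DNA replication. Cyclin A and cyclin B with CDK1 then carry the cell through G2 and mitosis, and their genes are activated late by MYBL2 and FOXM1 together with the MuvB complex, to which LIN9 and LIN54 belong. INK4 and CIP/KIP proteins inhibit the kinases, while the pocket proteins RB1, RBL1 (p107) and RBL2 (p130) repress E2F targets. SCLC is known for loss of RB function.

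Many genes of this network are themselves under E2F control, through sites near their start, and late genes often carry a further element called CHR. The windows below show such letters in the promoters of members whose levels are described further on, taken from RefSeq on GRCh38.p14, 5′ to 3′ along the gene's strand. Capitals mark the matched motif, which is CHR in CCNB2, a CCAAT box on the opposite strand in CCNA2 and an E2F-type site in the others. The windows of CDC25A and RBL1 also hold part or all of a further E2F-type match, left in lower case.
CCNB2, chr15:59105105-59105134, plus strand: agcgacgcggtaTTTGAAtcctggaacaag
CCNA2, chr4:121823923-121823952, minus strand: cgcgagcgctttcATTGGtccatttcaata
CDK1, chr10:60778291-60778320, plus strand: gctcgcactcagTTGGCGCccgccctcctg
E2F1, chr20:33686387-33686416, minus strand: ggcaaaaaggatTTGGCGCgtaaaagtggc
E2F2, chr1:23531257-23531286, minus strand: gcggcacgacgtTTGGCGCtaaaaaaaaaa
CDC25A, chr3:48188443-48188472, minus strand: ggtggattccgtTTGGCGCcaactaggaaa
RBL1, chr20:37096005-37096034, minus strand: cagctgcagattTTCGCGCgctttggcgca

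Promoters of 300 bases, 250 before and 50 after the start, were matched for 30 of the 39 genes. Those of CCND1, CCND2, CCNE2, CDK2, CDKN1C, E2F5, E2F8, FOXM1 and WEE1 were not matched. On both strands, an E2F-type motif (the letters TTCCCGC, the variant TTGGCGC or the variant TTCGCGC, whose matches can overlap) was found in 13 of the 30 promoters, or 43.3%, against 17.5% of the 11295 promoters of genes past the low-count filter. CHR (TTTGAA) was found in 5 of 30, CCNB2, CDK1, E2F3, LIN54 and RBL2, or 16.7% against 9.97%, and CCAAT in 11 of 30, or 36.7% against 36.6%. The ERR-type motif AAGGTCA was found in 1 of 30, that of RB1, or 3.33% against 2.54%. The RB1 start in that table lies 172771 bases inside the extent given for RB1 in the deposited table. Other starts also lie far inside, such as 80701 bases for CDK6, 62504 for RBL1 and 33923 for E2F1. A match is a description of the letters only. In siERRG3 the 13 genes with an E2F-type motif had a median log2 fold change to siCont of -0.11 and the 17 without it one of -0.13. In siERRG2 these medians were 0.02 and 0.07.

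The libraries held 19861937 to 20016780 counts. ESRRG, the targeted gene, had 806 counts in siCont against 211 in siERRG2 and 230 in siERRG3, with scaled count ratios to siCont of 0.259 (95% interval 0.221 to 0.302) and 0.281 (0.241 to 0.325). These are exact binomial (Clopper-Pearson) intervals of the ratio of the counts of a pair of libraries. Here and below they cover counting error only, not the spread between cultures. Of 10 neuroendocrine markers 8 were analysed, and INSM1, SYP, NEUROD1, CHGA, CHGB and NCAM1 lay between 59.9 FPKM (NCAM1) and 183 FPKM (INSM1) in siCont. The other analysed markers were lower, with 8.83 FPKM for SYT1 and 0.09 for DDC. INSM1 had 10359 counts in siCont against 5279 in siERRG2 and 9168 in siERRG3, and NEUROD1 had 7395, 7020 and 4073. CHGA had 3282, 3750 and 2751 counts, CHGB had 3645, 2756 and 3312, and SYP had 5279, 5169 and 3779. NCAM1 had 7173, 6567 and 8136, SYT1 had 848, 927 and 566, and DDC had 3, 8 and 16. These markers thus did not all go the same way. FPKM is the count scaled to transcript length and library size. The epithelial markers EPCAM, KRT8 and KRT18 were low, with 0.53, 3.71 and 2.57 FPKM in siCont. Over 9 markers of immune, endothelial and stromal cells the summed level was 25.6 FPKM in siCont against 35.1 in siERRG2 and 28.7 in siERRG3, of which COL1A2 alone made up 18.8, 26.6 and 22.9. VWF was at 0 counts in siCont and siERRG3, and PTPRC had 21, 25 and 29 counts. Their part in the values below was not tested. In bulk samples like these, fewer cells in a phase of the cycle and less RNA per cell cannot be told apart.

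All 39 genes passed the filter of at least 10 counts in at least 1 library, together with 14031 genes in all, and in 38 of them the mean count reached 50. The lowest was CDKN1C with a mean of 11.7, and the median of the 39 means was 1881. A gene is called lower or higher here when its fold change reached 1.2-fold, the threshold of the study. Fold changes are differences of log2 CPM, a count made relative to the library total, after 2 counts were added as a prior.

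In siERRG2, 6 of the 39 genes (15.4%) were lower than in siCont and 4 (10.3%) were higher, against 19.2% and 16.4% of all genes tested. The genes lower in siERRG2 were CDKN1C, E2F2, E2F5, CCNB2, MYBL2 and FOXM1, and those higher were CDK6, CCNE1, CDC25A and E2F7. In siERRG3, 14 of 39 (35.9%) were lower and 4 (10.3%) higher, against 25.1% and 23.2% of all genes. Those lower were CCND1, CCNE2, SKP2, CDKN1B, CDKN1C, RBL1, RBL2, E2F5, E2F6, TFDP2, CCNA2, CCNB2, CDC25C and FOXM1, and those higher were CCND3, CCNE1, CDC25A and E2F8. Both comparisons use the same siCont library and are not independent. The share of lower genes in siERRG3 was thus above that of all genes at 1.2-fold, and each of the other shares was below it. At 1.5-fold 4 of 39 genes (10.3%) were lower in siERRG3, near the 9.95% of all genes. Among the 21 genes with whole counts 4 were lower there, beside 24.7% of such genes whose mean count reached 50. Of all genes whose mean count reached 50, 15.5% were lower in siERRG2, near the 15.4% of the members. The counting interval excluded 1 for each of the 1.2-fold calls named above except CDKN1C in siERRG2. Over all genes, 12.8% were lower and 10.2% higher in siERRG2 with an interval excluding 1, and 19.9% and 17.1% in siERRG3, so the members' shares in siERRG2 (12.8% lower and 10.3% higher) were near that background in both directions. The median log2 fold change of the 39 genes was 0.02 in siERRG2 and -0.15 in siERRG3, beside -0.00038 and -0.0033 over all genes tested.

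**Figure D1:**
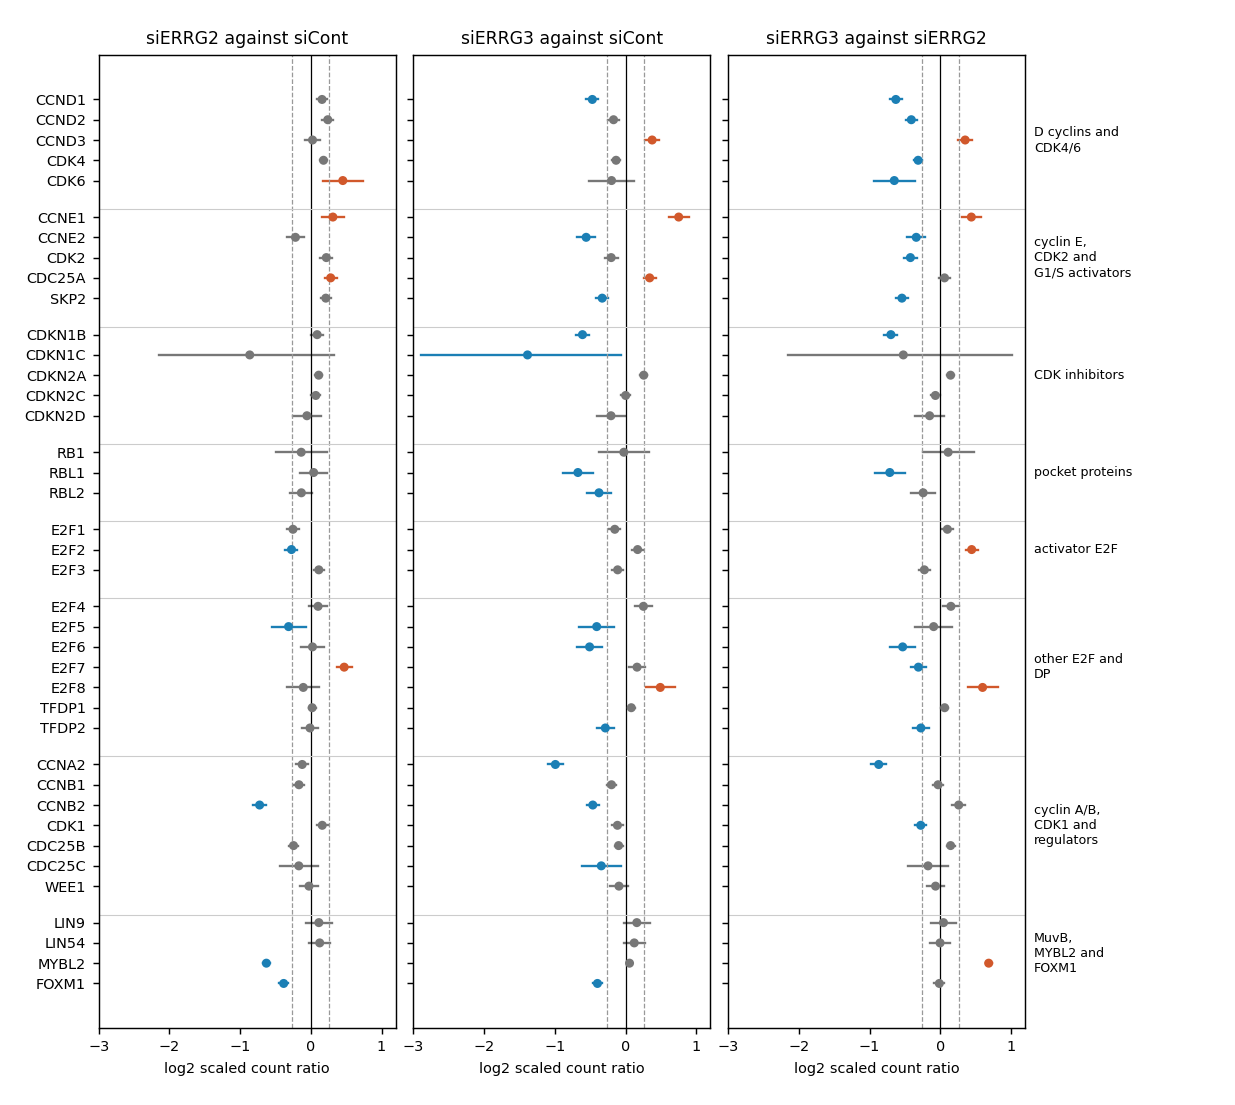
Log2 scaled count ratio (x axis) of each of the 39 genes (rows, grouped by role) in the 3 comparisons, with bars for the 95% exact binomial interval (counting error only). Blue is at least 1.2-fold lower and orange at least 1.2-fold higher with an interval that excludes 1, and dashed lines mark 1.2-fold. Blue points are more numerous in siERRG3 (14) than in siERRG2 (5), and CDKN1C has the widest bars.

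The levels per transcript length spanned a wide range in siCont. CDKN2A, which encodes the CDK4/6 inhibitor p16INK4A and, in another reading frame, p14ARF, was the highest at 321 FPKM. It was followed by MYBL2 (177 FPKM), TFDP1 (127), CDK4 (126) and the INK4 gene CDKN2C (110). At the other end RB1 had 1.48 FPKM, CDK6 had 0.79 and CDKN1C, which encodes the inhibitor p57, had 0.59. RB1 stood at percentile 38.9 of all genes in the table and CDKN2A at percentile 98.9. The order of TFDP1 and CDK4 was not the same in each library, since CDK4 was above TFDP1 in siERRG2, with 144 against 130 FPKM, and below it in siERRG3, with 116 against 135.

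**Figure D2:**
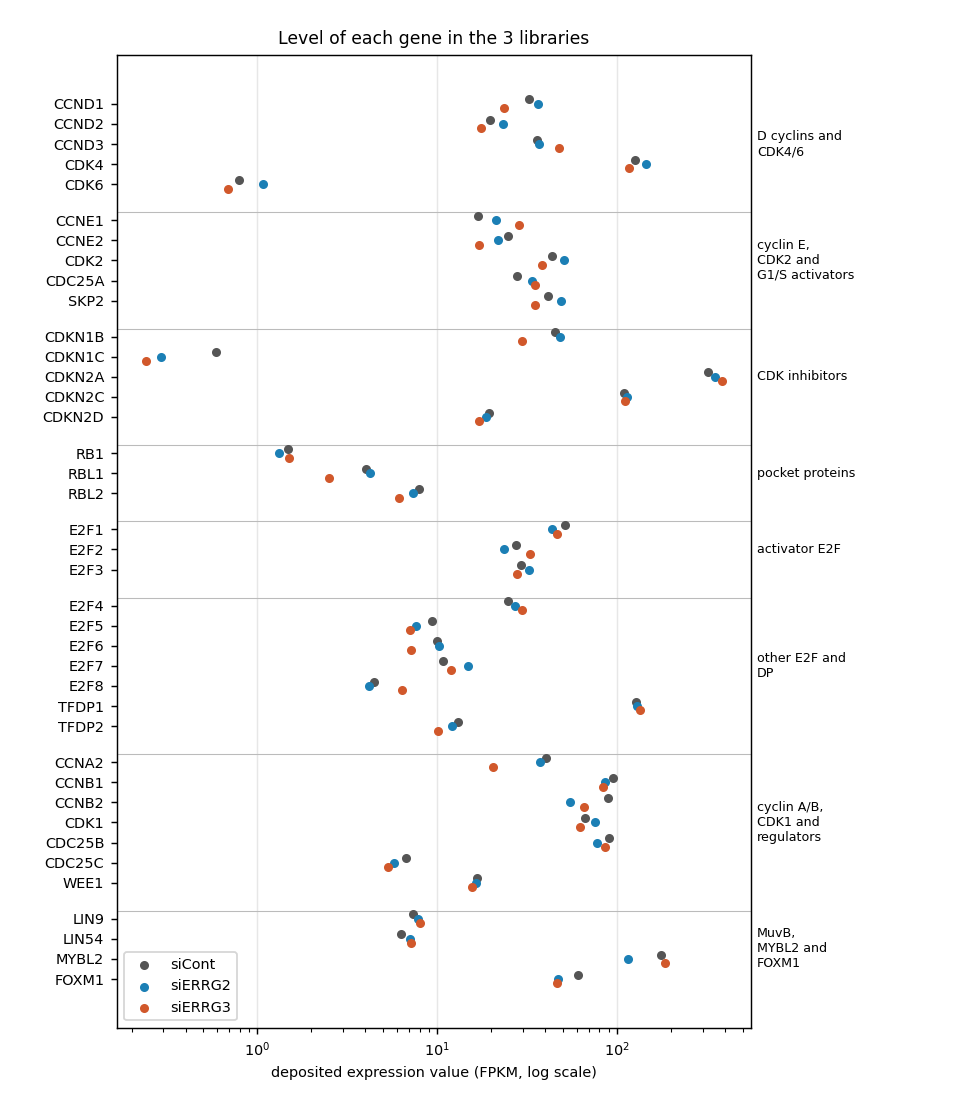
Deposited expression value (FPKM, log scale, x axis) of each of the 39 genes (rows, grouped by role) in siCont, siERRG2 and siERRG3, 1 library each. CDKN2A lies highest at 321 to 384 FPKM, and RB1, CDK6 and CDKN1C lie lowest.

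Among the G1 kinases, CDK4 had 5024 counts in siCont against 5752 in siERRG2 and 4656 in siERRG3. Relative to siCont it stood at 1.13 (1.09 to 1.18) in siERRG2 and at 0.911 (0.876 to 0.949) in siERRG3, both within 1.2-fold and beyond counting error. CDK6, the other D cyclin kinase, had 185, 256 and 164 counts and was 1.37-fold higher (1.13 to 1.66) in siERRG2. Its interval in siERRG3 was 0.702 to 1.08. At 0.69 to 1.08 FPKM, CDK6 made up at most 0.742% of the summed FPKM of CDK4 and CDK6.

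The D cyclins went different ways in siERRG3. Cyclin D1 (CCND1, chr11:69641105-69654474) had 2791 counts in siCont against 3150 in siERRG2 and 2049 in siERRG3, with a ratio of 0.722 (0.682 to 0.765) in siERRG3. The count of CCND2 was 2572, 3071 and 2325, and its ratios of 1.18 and 0.889 stayed within 1.2-fold. CCND3 had 1457, 1498 and 1923 counts and was 1.298-fold higher in siERRG3 (1.21 to 1.39). Of the genes that overlap CCND3 in the table, MED20 had a log2 fold change of 0.43 in siERRG3, USP49 of 0.27, BYSL of 0.17, TAF8 of -0.16, TFEB of -0.27 and PRICKLE4 of -0.061. Only CCND3 of the D cyclins was higher in siERRG3 than in siCont. The summed FPKM of the 3 genes was 87.9 in siCont against 97.0 in siERRG2 and 88.7 in siERRG3, while the share of CCND3 in the sum was 40.8%, 38.2% and 53.5%.

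The E cyclins lay on opposite sides of siCont, most widely in siERRG3. Cyclin E1 (CCNE1, gene 898, chr19:29811994-29824411) had 630 counts in siCont against 791 in siERRG2 and 1079 in siERRG3. Relative to siCont it stood at 1.24 (1.12 to 1.38) in siERRG2 and at 1.68 (1.53 to 1.86) in siERRG3, the highest of the 39 genes in that library. CCNE2 had 1343, 1168 and 928 counts, with ratios of 0.860 (0.794 to 0.931) and 0.679 (0.624 to 0.739). Within a library, the count of CCNE1 was 0.469 times that of CCNE2 in siCont (0.426 to 0.516), 0.677 times in siERRG2 (0.618 to 0.742) and 1.16 times in siERRG3 (1.06 to 1.27). This ratio within a library does not depend on how the libraries were scaled. The counts of CCNE2 were not whole numbers, so the ratio to CCNE1 can depend on how shared reads were assigned. The intervals do not cover that. The summed FPKM of both genes was 41.7, 43.0 and 45.7, so the make-up changed more than the sum.

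CDK2, the partner of the E cyclins, had 1971 counts in siCont against 2320 in siERRG2 and 1741 in siERRG3, within 1.2-fold in both (ratios 1.16 and 0.869). CDC25A, the phosphatase that removes inhibitory phosphate from CDK2, had 1965, 2414 and 2531 counts and was higher in siERRG2 (1.21, 1.14 to 1.29) and siERRG3 (1.27, 1.19 to 1.34). SKP2, the ubiquitin ligase subunit that targets p27 for degradation, had 2673, 3131 and 2162 counts. It stood at 1.16 (1.10 to 1.22) in siERRG2 and was lower in siERRG3, at 0.795 (0.751 to 0.842). With the FPKM values, SKP2 fell short of 1.2-fold in siERRG3, at a log2 fold change of -0.23.

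Of the CDK inhibitors, p27 (CDKN1B, gene 1027, chr12:12684396-12723882) had 2265 counts in siCont against 2437 in siERRG2 and 1510 in siERRG3. It was lower in siERRG3, at a ratio of 0.656 (0.614 to 0.700), so that SKP2 and its target were lower in the same library at the RNA level. CREBL2, whose extent overlaps that of CDKN1B in the table, had 1071, 1110 and 770 counts. GPR19, which also overlaps CDKN1B, had 158, 231 and 173 counts. The deposited counts of CDKN1B were not whole numbers. CDKN2A had 6689, 7307 and 8130 counts, and its log2 fold changes of 0.11 and 0.26 were beyond counting error and short of 1.2-fold. With CPM from total counts CDKN2A passed 1.2-fold in siERRG3, at a log2 fold change of 0.27.

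CDKN2B and MTAP overlap CDKN2A in the table. CDKN2B, the INK4 gene next to it, had 230, 187 and 506 counts, and MTAP had 2063, 1263 and 2641. The deposited counts of CDKN2A were not whole numbers, so some reads were shared out with other genes or transcripts. CDKN2C (p18) was the steadiest inhibitor, with 4092, 4345 and 4166 counts and ratios of 1.05 and 1.001. CDKN2D (p19) had 448, 436 and 395 counts, within 1.2-fold in both libraries. CDKN1C had 18, 10 and 7 counts, and its intervals of 0.227 to 1.25 and 0.135 to 0.960 show how little these counts resolve.

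Among the pocket proteins, RB1 had 138 counts in siCont against 127 in siERRG2 and 138 in siERRG3, with intervals of 0.709 to 1.17 and 0.771 to 1.25, so a difference was not detectable at this depth. RBL1 had 455, 473 and 290 counts and was lower in siERRG3, at a ratio of 0.627 (0.539 to 0.728). RBL2 had 703, 648 and 551 counts, with ratios of 0.911 (0.818 to 1.02) and 0.771 (0.688 to 0.863). Both RB1 relatives were thus lower in siERRG3, and RBL2 remained the highest of the pocket proteins per length, at 7.91, 7.39 and 6.16 FPKM. The deposited counts of RBL1 and RBL2 were not whole numbers. Of the genes that overlap RBL1 in the table, SAMHD1 and RPN2 were within 1.2-fold in both libraries. MROH8, which also overlaps RBL1, had 8, 7 and 13 counts, with a log2 fold change of 0.56 in siERRG3.

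Of the activator E2Fs, only E2F2 reached 1.2-fold from siCont, and only in siERRG2. E2F1 had 2771, 2352 and 2536 counts, with ratios of 0.839 (0.794 to 0.887) and 0.8999 (0.8524 to 0.9501). The count of E2F3 was 2753, 3011 and 2591, with ratios of 1.08 and 0.925. E2F2 had 2472 counts in siCont against 2068 in siERRG2 and 2830 in siERRG3, and was lower in siERRG2 at 0.827 (0.780 to 0.877). That call was lost with CPM from total counts and with the FPKM values, at log2 fold changes of -0.26 and -0.22. The summed FPKM of the 3 activators was 108 in siCont against 99.6 in siERRG2 and 107 in siERRG3.

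The other E2Fs differed more. E2F5, which works with the pocket proteins as a repressor, had 321, 261 and 246 counts, with ratios of 0.804 (0.680 to 0.949) and 0.754 (0.636 to 0.893). E2F6, a repressor that does not bind pocket proteins, had 652, 670 and 466 counts and was lower in siERRG3 at 0.703 (0.623 to 0.793). E2F4 had 1039, 1128 and 1259 counts and ratios of 1.07 and 1.19, and with CPM from total counts it passed 1.2-fold in siERRG3, at a log2 fold change of 0.27. The atypical repressors E2F7 and E2F8 were each higher in a different library. E2F7 had 1185, 1662 and 1349 counts and was higher in siERRG2 (1.387, 1.286 to 1.495), whereas E2F8 had 328, 308 and 469 counts and was higher in siERRG3 (1.41, 1.22 to 1.62). Of the dimerization partners, TFDP1 had 6585, 6747 and 7083 counts with ratios of 1.013 and 1.058, and TFDP2 had 1332, 1336 and 1111 and was lower in siERRG3 (0.820, 0.757 to 0.889).

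**Figure D3:**
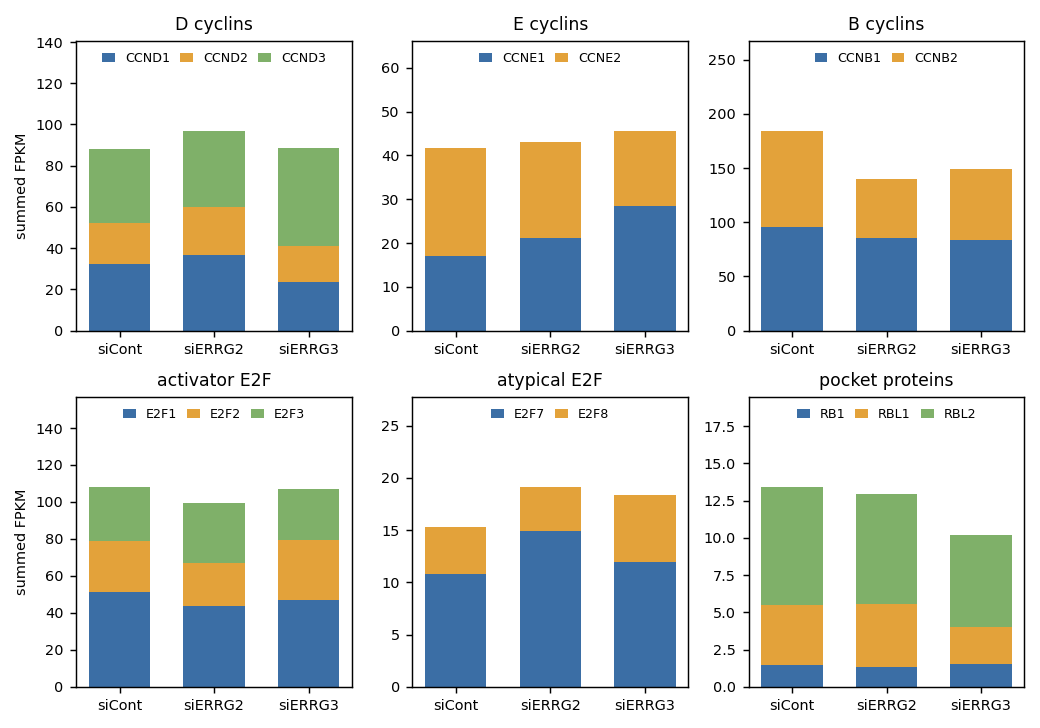
Summed FPKM (y axis, from 0) of 6 families in siCont, siERRG2 and siERRG3, with each gene as a stacked segment, 1 library per bar and no error bars. The E cyclin sum lies between 41.7 and 45.7 FPKM while the CCNE1 share goes from 40.7% in siCont to 62.4% in siERRG3, and the B cyclin sum is 185 FPKM in siCont against 140 and 149.

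Cyclin A2 (CCNA2, gene 890, chr4:121801322-121824001), the partner of CDK2 in S phase and of CDK1 in G2, had 2313 counts in siCont against 2149 in siERRG2 and 1182 in siERRG3. It stood at 0.918 times siCont (0.866 to 0.974) in siERRG2 and at 0.503 (0.468 to 0.539) in siERRG3, the lowest there of the 38 genes whose mean count reached 50. In FPKM these levels were 40.4, 37.5 and 20.5. The deposited counts of CCNA2 were not whole numbers. EXOSC9 and BBS7, which overlap CCNA2 in the table, had 1191, 1450 and 1403 counts and 402, 475 and 431 counts. Both were above siCont in siERRG3, at log2 fold changes of 0.21 and 0.076, and whether reads were shared with CCNA2 was not tested. These overlapping genes were chosen after the values were seen.

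The B cyclins were both below siCont, CCNB2 by more. CCNB2 (gene 9133, chr15:59105085-59167151) had 2732 counts in siCont against 1672 in siERRG2 and 2015 in siERRG3, with ratios of 0.605 (0.569 to 0.643) and 0.725 (0.684 to 0.769). CCNB1 had 4104, 3695 and 3637 counts, with ratios of 0.890 (0.851 to 0.931) and 0.871 (0.833 to 0.911), both within 1.2-fold. The count of CCNB1 was 1.502 times that of CCNB2 in siCont (1.43 to 1.58), 2.21 times in siERRG2 (2.09 to 2.34) and 1.80 times in siERRG3 (1.71 to 1.91). Their kinase CDK1 had 2535, 2867 and 2381 counts and stayed within 1.2-fold, at 1.12 (1.06 to 1.18) and 0.924 (0.873 to 0.977).

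WEE1, the kinase that holds CDK1 inactive, had 1116, 1108 and 1064 counts, and both of its intervals included 1. CDC25B, which helps to activate CDK1, had 5354, 4569 and 5085 counts, with ratios of 0.844 (0.811 to 0.878) and 0.934 (0.899 to 0.971). CDC25C, the related mitotic phosphatase, had 247, 222 and 198 counts and was lower in siERRG3 (0.788, 0.651 to 0.954).

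MYBL2 (B-MYB, gene 4605, chr20:43667019-43739177), the activator that joins MuvB in S phase, had 9794 counts in siCont against 6405 in siERRG2 and 10357 in siERRG3. It was lower in siERRG2 at a ratio of 0.647 (0.626 to 0.667), and its ratio in siERRG3 was 1.04 (1.011 to 1.069). FOXM1, which follows it in G2, had 4303, 3334 and 3322 counts, lower in siERRG2 (0.766, 0.732 to 0.802) and in siERRG3 (0.759, 0.725 to 0.794). The MuvB subunits LIN9, with 457, 500 and 519 counts, and LIN54, with 707, 780 and 783, had intervals that included 1 in both libraries.

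The G1/S genes were taken as the D and E cyclins, CDK2, CDK4, CDK6, CDC25A, SKP2 and E2F1 to E2F3 (13 genes), and the G2/M genes as CCNA2, CCNB1, CCNB2, CDK1, CDC25B, CDC25C, WEE1, MYBL2, LIN9, LIN54 and FOXM1 (11 genes). In siERRG2 the median log2 fold change was 0.18 for the G1/S genes and -0.17 for the G2/M genes, a difference of -0.35. Of the G1/S genes 3 were higher (23.1%) and 1 was lower (7.69%), and of the G2/M genes 3 were lower (27.3%) and 0 higher, beside 16.4% higher and 19.2% lower over all genes. In siERRG3 the medians were -0.15 and -0.11, a difference of 0.04, with 3 G1/S genes higher and 3 lower (23.1% each), and 4 G2/M genes lower (36.4%) and 0 higher, beside 23.2% higher and 25.1% lower over all genes. In groups of this size 1 gene moves a share by several percentage points. The groups overlapped in each comparison, and with 1 library per condition these medians describe the libraries only.

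**Figure D4:**
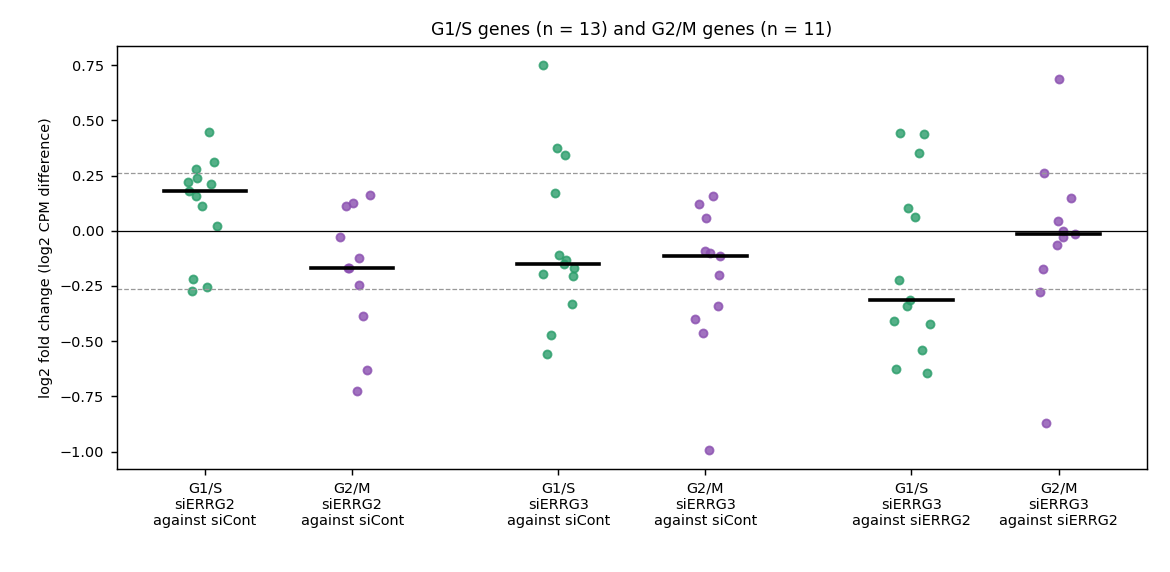
Log2 fold change (y axis, difference of log2 CPM) of the 13 G1/S genes and the 11 G2/M genes in the 3 comparisons, with 1 point per gene, black bars for medians and dashed lines at 1.2-fold. In siERRG2 the medians are 0.18 and -0.17, and in siERRG3 they are -0.15 and -0.11, with the points of both groups overlapping.

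The ESRRG libraries were also compared directly, which does not involve siCont. In siERRG3, 15 of 39 genes (38.5%) were lower than in siERRG2 and 5 (12.8%) higher, against 25.3% and 26.4% of all genes tested. With an interval excluding 1, 14 were lower and 5 higher, against 20.4% and 19.6% of all genes. The lower genes were the kinases CDK1, CDK2, CDK4 and CDK6, the cyclins CCND1, CCND2, CCNE2 and CCNA2, and SKP2, CDKN1B, CDKN1C, RBL1, E2F6, E2F7 and TFDP2. The 5 higher genes were CCND3, CCNE1, E2F2, E2F8 and MYBL2. Of the lower genes, CDKN1C had an interval of 0.225 to 2.03, on 10 counts in siERRG2 and 7 in siERRG3. With the FPKM values CDKN1C and TFDP2 fell short of 1.2-fold, at log2 fold changes of -0.198 and -0.245. The ratio of siERRG3 to siERRG2 was 0.547 for CCNA2 (0.509 to 0.588), 0.616 for CDKN1B (0.578 to 0.657), 0.647 for CCND1 (0.612 to 0.684) and 1.61 for MYBL2 (1.56 to 1.66). ESRRG itself had a ratio of 1.08 (0.896 to 1.31), an interval that includes 1. The median log2 fold change of siERRG3 to siERRG2 was -0.31 for the G1/S genes and -0.013 for the G2/M genes, a difference of 0.30. Over the 13 of these genes with whole counts that difference was -0.0025. In 9 of the 39 genes (23.1%) the intervals of siERRG2 and siERRG3, each against the shared siCont, lay on opposite sides of 1 with 1.2-fold between the ESRRG libraries, against 9.54% of all genes. The share of all genes includes genes of low count, whose wider intervals exclude 1 less readily, and none was computed at the members' depth. At 1.5-fold, 6.97% of all genes were lower and 4.29% higher in siERRG2, 9.95% and 8.47% in siERRG3, and 10% and 10.7% in siERRG3 against siERRG2. The members past 1.5-fold numbered 3 and 0, 4 and 1, and 5 and 2 in the same order.

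Further genes of the pathway were taken from lists by their textbook role. Of 30 E2F target genes of G1/S, such as the MCM helicase subunits, 5 were lower and 1 was higher in siERRG2, and 4 were lower and 2 higher in siERRG3. The shares lower, 16.7% and 13.3%, were below the 19.2% and 25.1% of all genes, and so were the shares higher, 3.33% and 6.67% against 16.4% and 23.2%. Among all genes whose mean count reached 50, 15.5% were lower in siERRG2, slightly under the 16.7% of this list. The median log2 fold change of the list was -0.10 and 0.06. CDT1, the licensing factor, had 2008, 2446 and 2831 counts, and SLBP had 1663, 1772 and 1974. MCM3 had 5670, 5161 and 2684 counts, a ratio of 0.465 (0.444 to 0.487) in siERRG3, and TK1 had 1053, 792 and 855. The replication clamp PCNA had 6295, 6518 and 6514 counts, with intervals of 0.989 to 1.06 and 0.983 to 1.05.

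Of 30 late target genes of G2/M, such as mitotic kinases and kinesins, 5 were lower and 0 higher in siERRG2, and 11 were lower and 0 higher in siERRG3. The share lower was 16.7% in siERRG2, below the 19.2% of all genes, and 36.7% in siERRG3, above the 25.1% of all genes. Among all genes whose mean count reached 50, the shares lower were 15.5% in siERRG2 and 24.3% in siERRG3. The share of this list in siERRG2 was thus near the background. The medians of this list were -0.10 and -0.20. MKI67, the proliferation marker Ki-67, had 9222, 8149 and 5214 counts, with ratios of 0.8736 (0.8478 to 0.9001) and 0.556 (0.537 to 0.575). CKAP2, a spindle protein, had 2430, 2661 and 1093 counts, a ratio of 0.442 (0.411 to 0.475) in siERRG3. NUSAP1, with 4660, 4750 and 4901 counts, and KIF23, with 1628, 1815 and 1630, stood at the other end of the list and were within 1.2-fold.

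Over 25 other cell cycle control genes past the filter, 6 were lower and 2 higher in siERRG2, and 4 were lower and 4 higher in siERRG3. The shares were 24% lower and 8% higher in siERRG2, beside 19.2% and 16.4% of all genes, and 16% in either direction in siERRG3, beside 25.1% and 23.2%. CDKN1A, which encodes p21, had 6799, 9349 and 5507 counts, higher in siERRG2 (1.36, 1.32 to 1.40) and lower in siERRG3 (0.796, 0.769 to 0.825). CDKN2B was 2.16-fold higher in siERRG3 (1.85 to 2.54) and 0.804 times its level in siCont in siERRG2 (0.659 to 0.979). MNAT1, a subunit of the CDK-activating kinase, had 418, 426 and 631 counts, and cyclin G2 (CCNG2) had 408, 405 and 237. LIN52, another MuvB subunit, had 208, 168 and 184 counts.

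Fractional counts in the deposited table show where reads were shared out between genes or transcripts. The 3 counts were whole numbers in 21 of the 39 genes and not in 18. Of those 18, 10 were lower in siERRG3 and 0 higher, while of the 21 with whole counts 4 were lower and 4 higher. Over all genes whose mean count reached 50, 24.02% of those with counts that were not whole and 24.7% of those with whole counts were lower in siERRG3, and 19.4% and 19.2% were higher. In siERRG2, 3 of the 18 were lower and 1 higher, and 3 of the 21 were lower and 3 higher. Over all genes at that depth, 15.2% were lower and 12.5% higher without whole counts, and 15.7% and 13.1% with them. In siERRG3 against siERRG2, 8 of the 18 were lower and 1 higher, and 7 of the 21 were lower and 4 higher. The shares of all genes there were 25.0% lower and 22.2% higher without whole counts, and 24.9% and 22.1% with them. The extents of 34 of the 39 genes overlap that of another gene in the table, some of which are very wide.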

How the data were processed

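The labels describe total RNA of H128 cells, a directional paired-end library kit and 48 h of transfection whereas the study's methods name a single-end 50-base system. The methods give alignment to GRCh37/hg19 with BWA and Bowtie 2, whereas the submitters' processing notes name TopHat2, HTSeq and DESeq2 with hg19, hg38 and GRCh38. The table's gene coordinates are on GRCh38. Whether counting used strand is not given in the sources used here. The authors deposited estimated counts (expected counts) per gene, not normalized, and an expression value that behaves as FPKM; its unit is not named there. The table's own fold changes, p-values and adjusted values hold the authors' comparisons and were not used.

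The estimated counts were rounded, and a gene was kept (14031 of 17448) if any library held 10 or more. Libraries were scaled with TMM in edgeR 4.0.16 (R 4.3.3), with factors of 0.994 to 1.003. Log2 CPM used a prior count of 2. With 1 library per condition no model was fitted. Intervals of 95% for count ratios are exact binomial (Clopper-Pearson method in SciPy 1.17.1), for counting error alone. Computations were tested on simulated data. Alternatives were CPM from total counts, DESeq2 1.42.0 size factors, FPKM with a pseudocount of 0.1, a smaller prior count (0.5), unfiltered genes, only genes whose mean count reached 50, genes with whole counts only, 1.5-fold, 1.2-fold with an interval excluding 1, and CCNA2 in the G1/S group. The genes named are the 39 members, ESRRG, CDKN1A, PCNA, MKI67 and the 2 highest and 2 lowest genes of each wider list by mean log2 fold change among those whose mean count reached 50. Markers of cell types and genes overlapping members are named for their counts only. Members and lists were chosen with earlier results of these data known.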

Additional observations from a re-analysis of the deposited data

Results flagged for a closer look

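For 9 of the 39 genes (23.1%), against 9.54% of all genes tested, the counting intervals lay on opposite sides of 1 in siERRG2 and siERRG3, each against siCont, and the direct comparison of these libraries reached 1.2-fold. The share of 9.54% includes genes of low count, whose wider intervals exclude 1 less readily, and none was computed at the members' depth. Both comparisons share siCont. The log2 fold change of siERRG3 against siERRG2 was -0.63 for CCND1, -0.41 for CCND2, -0.31 for CDK4, -0.42 for CDK2, -0.54 for SKP2, -0.70 for CDKN1B and -0.28 for CDK1. These 7 genes were above siCont in siERRG2, all within 1.2-fold, and below it in siERRG3. CCND2, CDK4, CDK2 and CDK1 were within 1.2-fold of siCont in both libraries. The log2 fold change of siERRG3 against siERRG2 was 0.44 for E2F2 and 0.69 for MYBL2, which lay below siCont in siERRG2 and above it in siERRG3. Both of these were within 1.2-fold of siCont in siERRG3. With 1 library per condition, the difference between the siRNAs was not tested.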

How the results depend on the processing

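No paired analysis was possible because each condition has 1 library and the labels carry no replicate numbers. Leaving out a replicate was likewise not possible. With total counts, DESeq2 size factors, a prior count of 0.5 or FPKM values, every count of lower or higher genes stayed within 1.5 times. With these settings 0 calls changed direction. The counts also stayed within 1.5 times with no filter and with a mean of at least 50 counts. Calls of single genes were not compared there. At 1.5-fold, the genes lower and higher were 3 and 0 in siERRG2, 4 and 1 in siERRG3, and 5 and 2 in siERRG3 against siERRG2, beside 6.97% and 4.29%, 9.95% and 8.47%, and 10% and 10.7% of all genes. Among the 21 genes with whole counts, 3 were lower in siERRG2, 4 in siERRG3 and 7 in siERRG3 against siERRG2, and the G2/M minus G1/S difference of siERRG3 against siERRG2 was -0.0025, in place of 0.30. These whole-count values rest on 21 genes, and the difference on 13. Of the 18 genes without whole counts, 10 were lower in siERRG3, beside 24.02% of such genes whose mean count reached 50. Why the values differ was not tested. Depth limits CDKN1C, and to a lesser degree RB1 and CDK6.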
